A study of Saccharomyces cerevisiae with 3 samples.

Results

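The genes described here encode enzymes of amino acid synthesis in the budding yeast Saccharomyces cerevisiae, together with GCN4, the transcription factor gene that regulates many of them. They were taken from a list of 53 gene symbols, and all 53 had a probe set of their own among the 5656 genes that the array's annotation names singly. They fall into 9 pathways and the regulator: 7 genes of histidine, 11 of leucine, isoleucine and valine, 4 of arginine, 7 of lysine, 9 of the aromatic amino acids, 5 of threonine, 4 of serine, 3 of proline and 2 of asparagine. RNA came from 3 independent steady-state chemostat cultures, each hybridised to 1 Affymetrix array. All 3 belong to 1 group: aerobic growth limited by glucose (7.5 g per litre in the feed) at a dilution rate of 0.10 per h, 30 °C and pH 5.0. Nitrogen came as ammonium sulphate (5.0 g per litre), zinc sulphate heptahydrate was supplied at 4.5 mg per litre, and dissolved oxygen stayed over 80% of air saturation. Neither strain nor genotype is stated in the labels. With 1 group there was no contrast between conditions and no test, so the values describe these 3 cultures.

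Yeast can make all protein amino acids from ammonium, sugar phosphates and intermediates of central metabolism. Each pathway opens with a committed step, often an enzyme that its end product inhibits. When amino acids run short, uncharged transfer RNA activates the protein kinase Gcn2, and the GCN4 messenger is then translated despite the short upstream reading frames in its leader. The Gcn4 protein activates genes of many amino acid pathways at the same time, which is known as general amino acid control. Because this control acts largely on translation and protein turnover, the GCN4 transcript signal is not a measure of Gcn4 protein.

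The arrays differed in overall brightness, with median signals of 30.6, 70.9 and 52.5 in cultures 1 to 3. Deposited signals therefore carry an array-wide factor, and 3 arrays limit the precision of every mean and SD (n = 3 throughout). A gene is called bright here when its mean signal lay over the 90th percentile of all genes (589.6) and dim when it lay under the 30th (48.3). This describes brightness on the array, since probe sets differ in affinity, and signals of different genes are not ordered by transcript abundance. A rank percentile is a gene's position among the 5656 genes on one array and needs no scaling between arrays. Affymetrix control probe sets of the opposite strand, marked as such in their names, reached at most 26.3 on any array. Signals of that size can therefore be nonspecific.

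Of the 53 genes, 24 were bright (45.3%), against 10% of all genes, and 1 was dim, against 30.0%. By each array's own 90th percentile 24 were bright in culture 1, 21 in culture 2 and 24 in culture 3. The 19 that were so in all 3 cultures (35.8%, against 8.50% of all genes) included members of every pathway except serine. Over all 53 genes the median rank percentile was 88.6, 88.0 and 88.5 in cultures 1, 2 and 3.

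**Figure D1:**
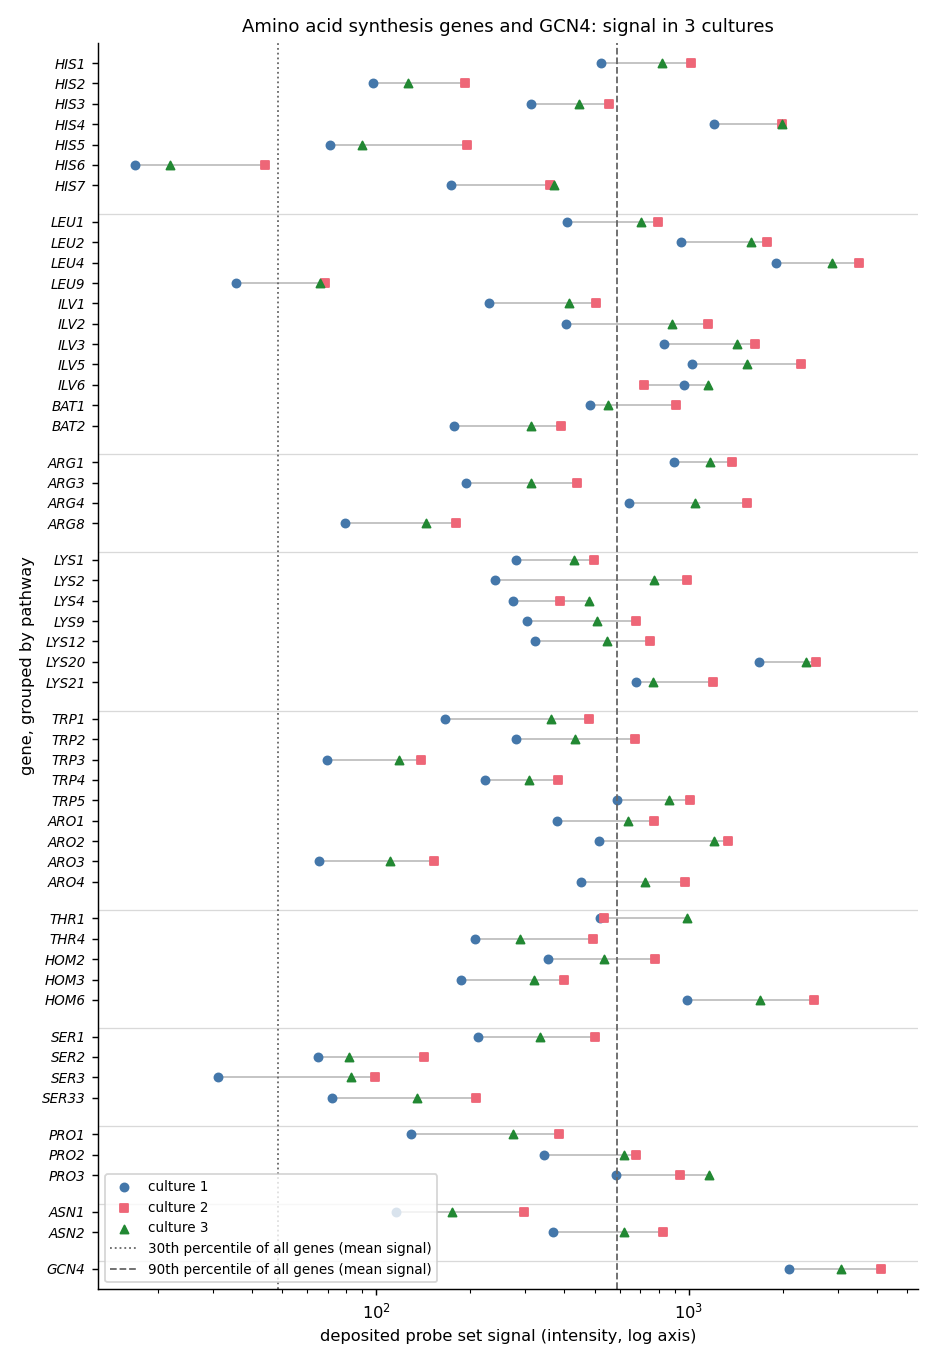
Deposited probe set signal (horizontal, log axis) of each of the 53 genes, grouped by pathway, with 1 symbol per culture and a grey line from the lowest to the highest. Vertical lines mark the 30th (48.3) and 90th (589.6) percentile of the mean signal of all genes. Most genes step up from culture 1 to culture 3 to culture 2, and HIS7, ILV6, LYS4, THR1 and PRO3 do not.

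GCN4 read 2089.7 in culture 1, 4127 in culture 2 and 3077 in culture 3 (mean 3098 ± 1019, SD). Its rank percentile lay between 99.2 and 99.3 on the 3 arrays, the highest of the 53 genes on each. The deposited signals thus differed by 1.97-fold while the rank stayed nearly the same. With arrays brought to a common median, GCN4 lay 0.15 above its own mean in culture 1 and deviated by -0.08 and -0.07 in cultures 2 and 3, all on the log2 scale. The median over all bright genes in culture 1 was 0.10. The GCN4 range of 0.23 became 0.08 after quantile normalization, 0.05 after cyclic loess and 0.01 without culture 1.

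Among the histidine genes, 2 of 7 were bright and 1 was dim. HIS1 encodes the phosphoribosyltransferase of the opening step and read 525, 1018 and 818 in cultures 1, 2 and 3. HIS4 encodes a multifunctional enzyme that also carries out the last step, and it read 1207, 1988 and 1984. HIS7, the glutamine amidotransferase and cyclase, read 174, 360.2 and 369, and HIS3, the dehydratase, read 314, 555 and 445. Both lay between the brightness limits in all 3 cultures. The aminotransferase gene HIS5 read 70.8, 195 and 89.8, and the phosphatase gene HIS2 read 97.2, 193 and 126. HIS5 kept its place least within this pathway, with rank percentiles of 57.7, 63.0 and 47.8. HIS6, the isomerase, was the only dim gene of the 53, at 16.9, 44.0 and 21.8. In cultures 1 and 3 it lay under 26.3, the highest strand control on any array. Its level there cannot be told from nonspecific signal. The limit is not scaled to each array's brightness, so it does not set culture 2 apart. Rank percentiles of HIS6 were 17.9, 20.5 and 14.6 in cultures 1, 2 and 3.

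The pathway of leucine, isoleucine and valine held 8 bright genes of 11 and no dim one. The acetolactate synthase, which is shared by these amino acids, has its catalytic subunit from ILV2 (404, 1149 and 880.4 in cultures 1, 2 and 3) and its regulatory subunit from ILV6 (964, 719 and 1153). ILV5, the reductoisomerase of the following step, read 1026, 2283 and 1535. ILV3, the iron-sulphur dehydratase, read 831, 1623 and 1425. ILV6 stood apart from the other acetolactate-derived steps, since it alone was lowest in culture 2, where the other 3 were highest. ILV1, the threonine deaminase that feeds isoleucine synthesis, read 229, 506 and 414 and was not bright.

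Leucine synthesis branches off through isopropylmalate synthase, for which yeast has 2 genes. LEU4 was among the brightest of the 53 genes with 1898, 3511 and 2874, and LEU9 read 35.4, 68.6 and 65.8, close to the limit for dim genes. LEU1, the iron-sulphur isomerase, read 407, 795 and 701, and LEU2, the dehydrogenase of the next step, read 944, 1785 and 1585. Both were bright by their mean, and each was highest in culture 2 and lowest in culture 1. The branched-chain aminotransferases are mitochondrial (BAT1) and cytosolic (BAT2). BAT1 read 482, 908 and 553 and BAT2 read 177, 388 and 312, so that the rank of BAT1 fell between 89.0 and 92.6 and that of BAT2 between 79.7 and 80.2.

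For arginine, the synthetase and lyase of argininosuccinate were bright and the other 2 genes were not. ARG1, the synthetase, read 899.5, 1379 and 1172, and ARG4, the lyase, read 644, 1539 and 1049. ARG3, the ornithine carbamoyltransferase, read 193, 438 and 312, and the mitochondrial aminotransferase gene ARG8 read 79.5, 180.2 and 144. Apart from ARG1, whose log2 range was 0.59 at a common median, these genes followed the array-wide factor closely, with ranges of 0.09 for ARG3, 0.11 for ARG8 and 0.12 for ARG4.

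Lysine is made in yeast from oxoglutarate by way of aminoadipate, and 3 of the 7 genes were bright. The homocitrate synthase genes LYS20 and LYS21, which open the pathway, read 1673, 2552 and 2377, and 679, 1199 and 770.2. The steps that follow were of middle brightness: LYS4, the iron-sulphur homoaconitase, at 273, 386 and 480.1, and LYS12, the dehydrogenase after it, at 323, 749 and 548. LYS2, the aminoadipate reductase, read 239, 984 and 772, low in culture 1 and bright in cultures 2 and 3. The saccharopine dehydrogenase genes read 303, 678 and 509 for LYS9 and 280.5, 498 and 429 for LYS1. LYS12 and LYS9 had ranges of 0.02 and 0.05 at a common median, while those of LYS2 and LYS4 were 0.91 and 0.75.

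Of the 9 aromatic genes 4 were bright and none was dim. The entry enzymes of the shikimate pathway come from ARO3 (65.4, 153 and 111) and ARO4 (451, 973 and 726). ARO1, which encodes the multifunctional enzyme of the central steps, read 379, 775 and 640.2. ARO2, the chorismate synthase, read 515, 1338 and 1204. ARO1, ARO2 and ARO4 were bright by their mean, and each was lowest in culture 1. In the tryptophan branch only TRP5, the tryptophan synthase, was bright, at 589, 1008 and 862. The anthranilate synthase subunit genes read 279, 675 and 433 for TRP2 and 69.3, 139 and 118 for TRP3. TRP4 and TRP1, which act after them, read 222, 382 and 309, and 165, 478 and 361. All 9 aromatic genes had their lowest deposited signal in culture 1 and their highest in culture 2, as did 86.3% of all not-dim genes. All 9 ranged over less than 0.5 at a common median, as did 73.8% of all not-dim genes.

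The threonine pathway runs from aspartate through homoserine, which also feeds methionine. HOM3, the aspartate kinase, read 186, 398 and 319.7, and HOM2, the dehydrogenase after it, read 355, 779 and 535. HOM6, the homoserine dehydrogenase, was bright with 984, 2518 and 1693. THR1, the homoserine kinase, was bright by its mean with 519, 535 and 984, and THR4, the threonine synthase, read 206, 493 and 288. THR1 alone of these 5 genes was highest in culture 3, and its culture 2 value barely exceeded that of culture 1.

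Serine, proline and asparagine are made by short pathways, and 2 of their 9 genes were bright. The phosphoglycerate dehydrogenase genes read 31.2, 98.6 and 82.7 for SER3 and 72.0, 208 and 135 for SER33. SER1, the aminotransferase, read 211, 501 and 334, and SER2, the phosphatase, read 65.1, 142 and 81.9. None of the 4 serine genes was bright or dim. PRO1, the kinase that opens proline synthesis, read 129, 384 and 274, PRO2, the reductase after it, read 345, 675 and 621, and PRO3, the last enzyme, read 584, 935 and 1160.3. PRO3 was the bright one and, unlike PRO1 and PRO2, was highest in culture 3. The asparagine synthetase genes read 115, 297 and 174 for ASN1 and 368, 827 and 622 for ASN2, the latter bright by its mean.

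Brightness was also read by the kind of step. Of the 14 genes for first or committed steps 6 were bright and none was dim, from 56.6 ± 18.4 for LEU9 to 2761 ± 812 for LEU4. Of 11 genes for mitochondrial enzymes 6 were bright and none was dim. The 3 iron-sulphur enzymes LEU1, ILV3 and LYS4 had 2 bright members, LEU1 and ILV3. Of the 53 genes 45.3% were bright and 1 was dim, against 10% and 30.0% of all genes. Differences between kinds of step were not tested.

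Between cultures, the 52 genes that were not dim mostly moved with the arrays. In 47 of them (90.4%) the deposited signal was lowest in culture 1 and highest in culture 2, an order shown by 86.3% of all 3959 genes that were not dim. The exceptions were HIS7, ILV6, LYS4, THR1 and PRO3, each of which was highest in culture 3. The median ratio of culture 2 over culture 1 was 2.15 for these 52 genes and 2.31 for all, and that of culture 3 over culture 1 was 1.68 and 1.74. As deposited, 30 of the 52 (57.7%) differed by more than 2-fold between cultures, against 75.5% of all. ILV6 was the only one of the 52 with a lower signal in culture 2 than in culture 1, which held for 1.09% of all genes.

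At a common median, 2 of the 52 genes (3.85%) differed by more than 2-fold, against 3.56% of all genes that were not dim. The median SD of log2 signal was 0.17 for the 52 genes, 0.18 for all and 0.17 for all bright genes. The log2 range lay under 0.5 in 41 of the 52 (78.8%) and in 73.8% of all. Log2 signals of the 52 genes correlated between arrays at r = 0.965 (cultures 1 and 2), 0.980 (1 and 3) and 0.970 (2 and 3), which describes genes that share each array.

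**Figure D2:**
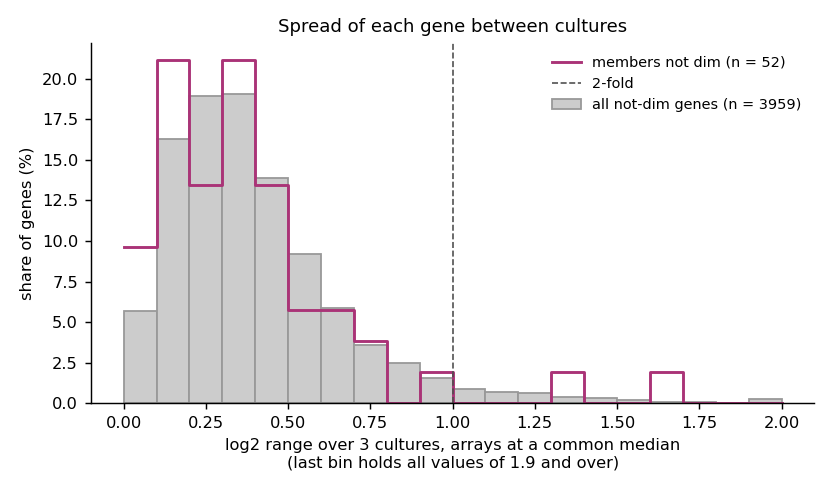
Share of genes (vertical, %) by log2 range over the 3 cultures with arrays at a common median (horizontal, bins of 0.1), for all 3959 genes that were not dim (grey bars) and for the 52 described here (line). The dashed line marks 2-fold. Both distributions peak under 0.5, and 2 of the 52 genes lie beyond 2-fold.

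The pair beyond 2-fold was ILV6 and THR1, both low in culture 2. ILV6 (YCL009C), the regulatory subunit of acetolactate synthase, deviated from its mean by 0.72, -0.92 and 0.20 in cultures 1, 2 and 3, a range of 1.64 or 3.11-fold. THR1 (YHR025W), the homoserine kinase, deviated by 0.34, -0.83 and 0.49, a range of 1.31 or 2.48-fold. Their rank percentiles fell to 88.8 and 85.0 in culture 2, from 96.6 for ILV6 and 93.2 for THR1 in culture 1. Both passed 2-fold only with culture 2 included. Without it no gene of the 52 did (0.783% of all did), and the ranges were 0.52 for ILV6 and 0.15 for THR1. Of 62 other genes whose probe set numbers lie within 50 of that of ILV6, 4 (6.45%) deviated below -0.6 in culture 2, against 2.22% of all. For THR1 it was 0 of 67. The distance of 50 and the limit of -0.6 were set after the values of ILV6 and THR1 were seen. The median deviation in culture 2 was -0.07 for the 62 genes near ILV6, against -0.002 for all. Probe set numbers are not known here to give position on the array, and the neighbouring genes HIS7 and ARO4 hold successive numbers. Whether position on the array has a part in the ILV6 value was not tested.

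LYS2, the aminoadipate reductase, came next with a range of 0.91. It was low in culture 1, at -0.58, and above its mean in cultures 2 and 3, at 0.25 and 0.33. Without culture 1 its range was 0.08. LYS4 and PRO3 followed, with their lowest values in culture 2, at -0.49 and -0.43, and HIS5 ranged over 0.69 with 0.31 in culture 2 and -0.37 in culture 3. At the other end LYS12, ARO3 and ASN2 ranged over 0.02, 0.03 and 0.04. Their order depends on the scale, since with log2(signal + 16) they ranged over 0.27, 0.15 and 0.23, wider than LEU4 at 0.06 and HIS1 at 0.07.

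**Figure D3:**
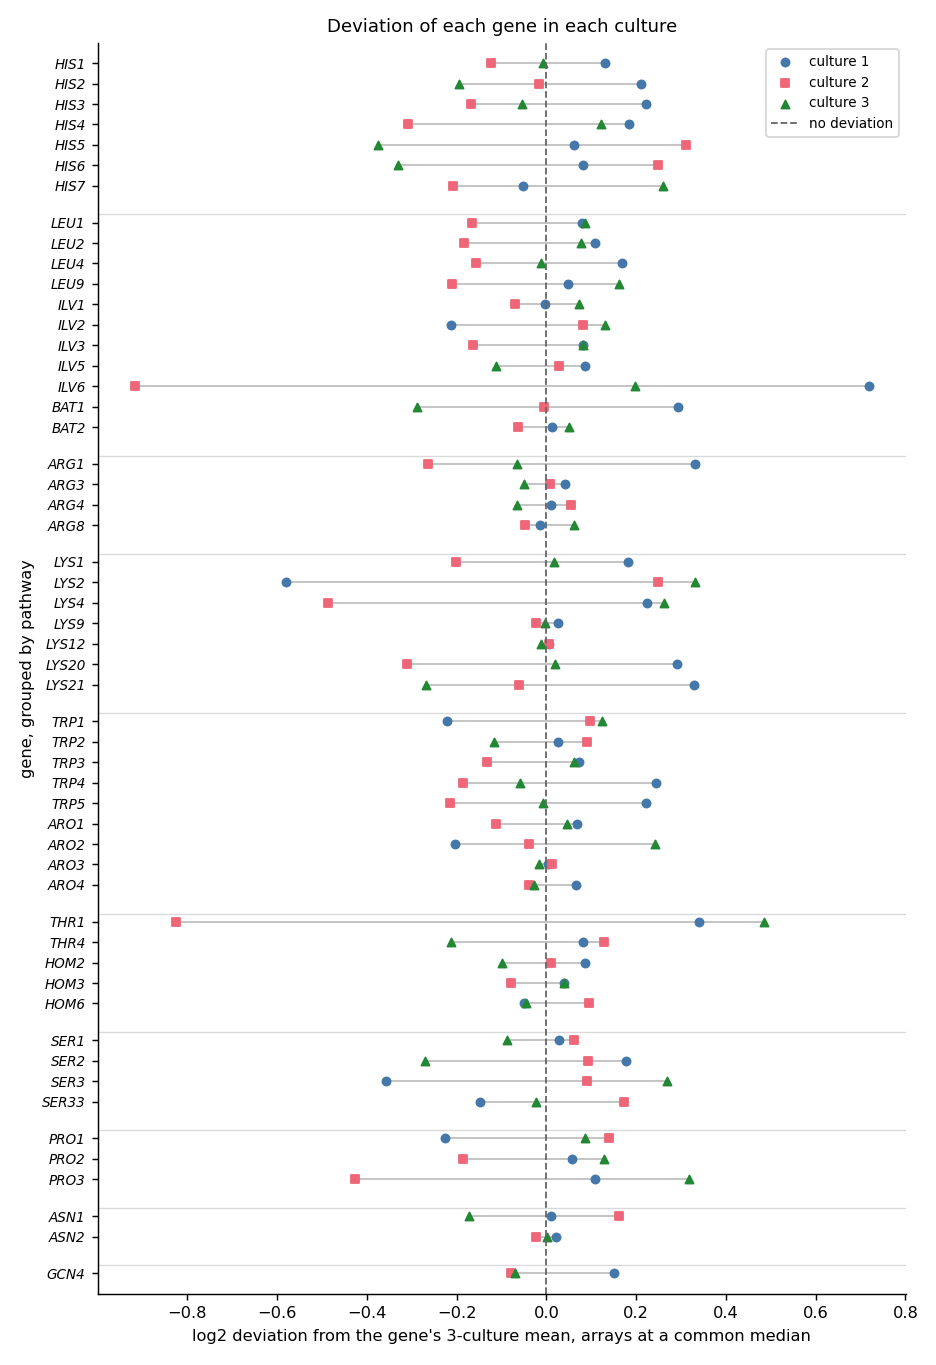
Log2 deviation (horizontal) of each of the 53 genes from its mean over the 3 cultures with arrays at a common median, grouped by pathway, 1 symbol per culture. ILV6 and THR1 reach -0.92 and -0.83 in culture 2 and LYS2 reaches -0.58 in culture 1.

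At a common median most of the genes lay above their mean in culture 1. With log2(signal + 16) most of them lay below it, as did most of all genes. At a common median 41 of 52 (78.8%) were above their own mean in culture 1, against 50.7% of all genes. The median deviation was 0.07 against 0.00. In culture 2, 19 of 52 (36.5%) were above their mean, against 49.7%, with a median of -0.05, and in culture 3, 26 of 52 (50%), against 54.7%. Among the 24 bright genes 20 were above their mean in culture 1, against 73.0% of all bright genes, and 5 in culture 2, against 39.8%. Among the 28 genes that were neither bright nor dim 21 were above their mean in culture 1, against 47.0% of all such genes, and 14 in culture 2, against 51.4%. After quantile normalization the counts were 35 of 52 in culture 1, against 50.6% of all genes, and 24 in culture 2, against 54.8%. After cyclic loess they were 35, against 52.7%, and 23, against 51.6%. With log2(signal + 16) the count in culture 1 was 15 of 52, against 27% of all genes. The median deviation there was -0.08, against -0.09 for all genes.

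By pathway these medians come from 2 to 11 genes each, and differences between pathways were not tested. In culture 1 the median deviation ranged from -0.06 for serine to 0.18 for lysine, and in culture 2 from -0.18 for proline to 0.09 for serine. Histidine genes had 0.16 and -0.15 in cultures 1 and 2, genes of the branched-chain pathway 0.08 and -0.16, and aromatic genes 0.07 and -0.04.

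The change of the signal ratio between arrays was taken for 6 pairs of paralogues that catalyse the same step. An array-wide factor cancels in this ratio, but a difference between arrays that depends on brightness does not. In culture 1 the median deviation was 0.10 for all bright genes and 0.00 for all not-dim genes. The ratio changed least for ARO4 over ARO3, by 1.08-fold between the lowest and the highest culture. It changed by 1.23-fold for LEU4 over LEU9 and by 1.28-fold for ASN2 over ASN1. It changed by 1.42-fold for SER33 over SER3, by 1.45-fold for LYS20 over LYS21 and by 1.53-fold for BAT1 over BAT2. BAT1 over BAT2 was lowest in culture 3 and LYS20 over LYS21 highest there. Most of these paralogues are similar in sequence, and binding of one transcript to the probe set of the other was not tested. A probe set annotated to both LYS20 and LYS21 read 1296, 2045 and 1832 and was not used.

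**Figure D4:**
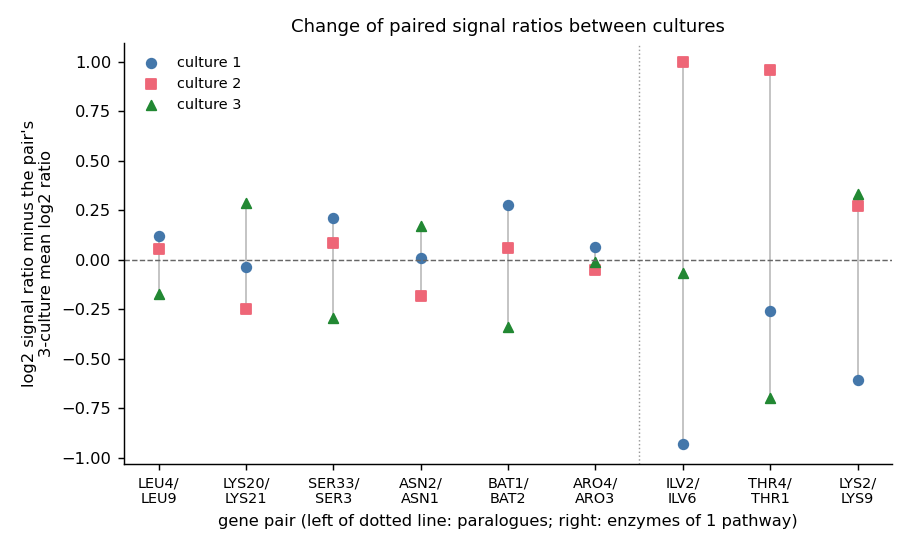
Log2 ratio of the signals of 2 genes within each array, as the difference from the pair's mean over the 3 cultures (vertical), for 6 paralogue pairs and 3 pairs of enzymes of 1 pathway. The paralogue pairs change by at most 1.53-fold, and ILV2/ILV6 and THR4/THR1 by 3.81-fold and 3.14-fold. The pairs of 1 pathway were chosen after their values were seen, when ILV6 and THR1 were known to range widely.

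The same measure was taken for 3 pairs chosen after their values were seen. They include ILV6 and THR1, already known to range widely, so their large changes are not a separate result. The ratio of ILV2 to ILV6, the catalytic and regulatory subunit of 1 enzyme, changed by 3.81-fold, highest in culture 2 and lowest in culture 1. The ratio of THR4 to THR1, successive enzymes of threonine synthesis, changed by 3.14-fold and was also highest in culture 2. The ratio of LYS2 to LYS9 changed by 1.92-fold and was lowest in culture 1.

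HIS3 and LEU2 had further probe sets. The second one of HIS3 read 43.2, 71.5 and 50.05, far under the 314, 555 and 445 of the one used, so the brightness of HIS3 depends on the probe set. Those of LEU2 with a letter code, which can bind related transcripts, read 155, 529 and 494, and 273, 808 and 638. Their means of 393 and 573 lay under the limit of 589.6, so LEU2 was bright on the probe set used and not on these. On these, LEU2 deviated by -0.49 and -0.27 in culture 1, against 0.11 on the probe set used, so that the direction in culture 1 differs between probe sets. The log2 range of LEU2 at a common median was 0.90 and 0.44 on these, against 0.29 on the probe set used. HIS7 and ARO4 are neighbouring genes on chromosome II (RefSeq assembly R64). They deviated differently in culture 3, by 0.26 and -0.03.

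Other genes of these pathways and of Gcn4 control were read from further lists. Of 15 other amino acid synthesis genes that were read, 5 were bright and none was dim, from the aspartate aminotransferase AAT2 at 1007, 1752 and 1556 to the prephenate dehydratase PHA2 at 33.0, 82.9 and 43.5. At a common median 0 of 15 passed 2-fold, against 3.56% of all genes. All 15 had the array order of culture 1, culture 3 and culture 2, against 86.3% of all genes that were not dim.

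Genes of regulators were read in the same way. Of 9 genes listed as pathway transcription factors none was bright and 5 were dim. MCM1, which takes part in arginine control, was the brightest at 77.6, 162 and 131. The lowest, the homeodomain factor PHO2, read 9.25, 20.01 and 12.8, and LYS14, the activator of lysine genes, read 11.5, 23.6 and 18.0. Both stayed under 26.3, the highest strand control on any array, in all 3 cultures. Of 13 genes for GCN4 translational control 1 was bright and 2 were dim. They ran from GCD11, a subunit of initiation factor eIF2, at 384, 1111 and 763, to the kinase GCN2 at 28.9, 52.2 and 32.6. Of 8 genes for Gcn4 protein turnover 1 was bright and 3 were dim, with the ubiquitin ligase subunit SKP1 at 523, 1068 and 924 and the cyclin SSN8 at 10.4, 36.7 and 24.6. SSN8 lay under 26.3 in cultures 1 and 3. PCL5, the cyclin that directs the kinase Pho85 to Gcn4, read 219.8, 387 and 389. Of the genes in these 3 lists that were not dim, 0 of 4, 0 of 11 and 0 of 5 passed 2-fold at a common median, against 3.56% of all genes. The array order of culture 1, culture 3 and culture 2 held for 4 of 4, 9 of 11 and 2 of 5. It held for 86.3% of all genes that were not dim. The shares over all genes are 10% bright and 30.0% dim.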

How the data were processed

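Total RNA from 3 independent chemostat cultures of 1 group was labelled with biotin and hybridised to 1 array each, per the labels' protocols. The deposited values are the authors' probe set intensities on a linear scale. The submitters' processing notes name the software GCOS, and how it summarised, background-corrected or scaled the probes is not stated there. Of 9335 probe sets 60 were controls, 6504 had 1 gene, and 328 had several and were left out. Symbols came from a RefSeq table (assembly R64), and its coordinates were used to find neighbouring genes.

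For a gene with several probe sets, the one whose name is a plain number was used (the brightest of several such), and otherwise the brightest of all, which gave 5656 genes. Signals were floored at 1, taken to log2 and brought to the median of all probe sets that are not controls. Dim genes were left out of comparisons between cultures. The members and lists were chosen with earlier results of these data known. All 53 members are described, and of each further list the highest and lowest gene and any not-dim gene over 2-fold are named, with LYS14 and PCL5 added after their values were seen. Promoter sequences were not used here, so a planned search for the Gcn4 motif was not run. Alternatives were no normalization, cyclic loess and quantile normalization (with limma 3.58.1 under R 4.3.3), log2(signal + 16), other limits and probe set rules, and leaving out each culture. Other steps used Python 3.11.15, numpy 2.4.6 and pandas 2.3.3, and the range and median steps were tested on simulated data.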

Additional observations from a re-analysis of the deposited data

How the results depend on the processing

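The count of genes over 2-fold was 2 after quantile normalization, cyclic loess, other filters on dim genes, the mean over probe sets, and a floor at 26.3 or a median over genes that are not dim (both chosen after seeing the data), 3 with log2(signal + 16), which added LYS2, and 0 to 2 with 1 culture left out (0 without culture 2). With signals as deposited it was 30, the median deviations were -0.60 in culture 1 and 0.49 in culture 2, and 1, 50 and 44 of 52 genes lay above their mean in cultures 1, 2 and 3 (0.606%, 97% and 79.4% of all genes), since the array-wide factor is kept. With log2(signal + 16) 15 and 33 of 52 lay above their mean in cultures 1 and 2 (27% and 64.2% of all). The count of bright genes was 42 at the 75th and 9 at the 95th percentile, and that of dim genes 0 at the 10th and 3 at the 50th. With 1 culture left out there were 23 to 25 bright genes and 1 dim gene, and the genes above their mean numbered 34 to 36 in culture 1 (47.5% to 50.2% of all), 16 to 18 in culture 2 (47.3% to 49.8%) and 18 to 34 in culture 3 (52.5% to 52.7%). Other forms and windows of the Gcn4 motif were not run, since promoter sequences were not used here. No paired analysis was possible because the series has 1 group. Arrays without a stated scaling limit comparisons between cultures to changes relative to other genes.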
